A study of Mus musculus with 6 samples.

Results

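The genes described here are the 55 protein-coding mouse genes on chromosomes 1 to 19 and X whose symbol starts with Eif, the eukaryotic translation initiation factors and the proteins that regulate them, among 21631 protein-coding genes of the RefSeq table for mm10 (GRCm38.p6). They were chosen by symbol, and the rule uses no measured value. The assay was ATAC-seq, which uses the Tn5 transposase to tag open chromatin, on hematopoietic stem cells from mouse bone marrow, and the series asks what the nuclear chromatin protein DEK does to accessibility in these cells. Dek_cKO libraries came from Dekfl/fl mice that also carried Tie2-Cre, and Dek_fl libraries from Dekfl/fl mice with no Cre named. Both groups were C57BL/6, 12 weeks old (also labelled 3 months) and unchallenged, and both carried the floxed Dek alleles. About 20000 Lin-Sca-1+c-Kit+CD48-CD150+ cells were sorted for a library, and each group had 3 libraries, for which the labels do not say whether they came from separate animals. The design text of the series speaks of duplicates, so how replicate 3 relates to that design is not known. Tests therefore measure the spread between libraries, which may be technical. Tie2-Cre acts in blood and endothelial cells, so the deletion is not particular to stem cells. No Cre is named for the Dek_fl mice that would control for the recombinase itself.

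Translation of most mRNAs starts when the eIF4 proteins bind the cap, eIF2 brings the initiator tRNA, eIF3 holds the small ribosomal subunit together with its partners, and this assembly scans to a start codon. Phosphorylation of the alpha subunit of eIF2 by 4 stress kinases blocks its recycling by eIF2B and lowers protein synthesis, and the eIF4E-binding proteins block cap recognition. Hematopoietic stem cells are known for a low rate of protein synthesis compared with other blood cells.

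A gene was counted as called in a library where a deposited peak lay within 1 kb of either annotated end. The fold enrichment and -log10 p of a peak are the authors' own values, set within each list, and were used only as percentiles: the share of the peaks in the same list that ranked lower, with 100 as the top. The percentile of a gene is that of its highest peak at either end. Percentiles are given for replicates 1, 2 and 3 in that order. In bulk libraries, fewer cells with an open site and less opening per cell cannot be told apart. The lists carry no read depth, so no interval for counting error can be given.

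The lists held 70756, 73173 and 27170 peaks in the Dek_cKO libraries, against 52451, 71555 and 23813 in the Dek_fl libraries. Replicate 3 of both groups stood apart: its score column is 10 times the -log10 p rather than the -log10 q used in replicates 1 and 2, its weakest peaks have a -log10 p of 5.02 and 5.07 against 2.87 to 3.13 elsewhere, and its lists are the shortest. Each group holds 1 such library, and within-batch values stand beside the results below. Of 8 stem cell markers, Kit and Tek were called in all 6 libraries, whereas Ly6a, which encodes the sorted antigen Sca-1, was called in 1 Dek_fl library. Between 25.0% and 100% of the stem cell list was called per library, beside 0% to 80% of a B cell list, 20% to 80% of a T cell list, 0% to 60% of a granulocyte or monocyte list, 75% to 100% of an erythroid list, 50% to 100% of a megakaryocyte list and 25% to 75% of an endothelial list, so the marker lists do not separate the sorted cells from other blood cells. Dek itself had percentiles of -log10 p of 80.1, 62.5 and 79.3 in Dek_cKO and 65.0, 76.4 and 85.5 in Dek_fl, and peaks at its ends do not check the deletion, since the sources used here do not give the floxed part. At Tek, whose other name is Tie2, the percentiles were 65.1, 51.6 and 8.03 in the libraries labelled Dek_cKO and 99.95, 99.98 and 87.4 in those labelled Dek_fl. The strong Tek peak was thus seen without a labelled Tie2-Cre. Every direction below follows the labels and would turn if they were exchanged.

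The promoter windows that the account turns on are shown first, as RefSeq gives them for GRCm38.p6, 5′ to 3′ on the strand of the gene, from 250 bases before to 50 after a transcript start. Capitals mark the searched motifs, read on both strands. They are the letters CCGGAAGT for ETS factors, the E-box letters CACGTG, the so-called CAAT box with the letters CCAAT, the promoter element TATAAA, the letters AAGATGGCG for the factor YY1, the response element TGACGTCA for cyclic AMP (CRE below), and the NRF1 palindrome. A pyrimidine start, as in a terminal oligopyrimidine tract, is also in capitals: a C at the first transcribed base with at least 4 further pyrimidines. No motif of the list contains another. Eif2ak3 (chr6:70844265-70844564, + strand) had the highest mean percentile of -log10 p of the 48 members called in all 6 libraries and Eif3g (chr9:20898541-20898840, - strand) the lowest. The other windows were picked after the values were seen: Eif4g3 (chr4:137993205-137993504, + strand) for a start site inside the annotated gene, Eif4a3l1 (chr6:136327289-136327588, + strand) because no library had a peak there, and Eif3f (chr7:108934165-108934464, + strand) because it holds an oligopyrimidine start.
Eif2ak3: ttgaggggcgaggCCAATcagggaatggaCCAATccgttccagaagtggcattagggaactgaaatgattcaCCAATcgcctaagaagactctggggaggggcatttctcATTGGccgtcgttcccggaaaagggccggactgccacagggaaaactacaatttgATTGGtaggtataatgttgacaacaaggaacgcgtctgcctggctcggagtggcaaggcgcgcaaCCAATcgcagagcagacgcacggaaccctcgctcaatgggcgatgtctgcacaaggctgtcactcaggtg
Eif3g: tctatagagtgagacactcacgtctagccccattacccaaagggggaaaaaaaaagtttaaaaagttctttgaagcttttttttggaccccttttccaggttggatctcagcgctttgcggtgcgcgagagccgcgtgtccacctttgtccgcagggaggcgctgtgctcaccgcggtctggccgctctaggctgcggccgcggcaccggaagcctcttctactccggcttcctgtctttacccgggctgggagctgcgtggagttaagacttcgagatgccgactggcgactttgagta
Eif4g3: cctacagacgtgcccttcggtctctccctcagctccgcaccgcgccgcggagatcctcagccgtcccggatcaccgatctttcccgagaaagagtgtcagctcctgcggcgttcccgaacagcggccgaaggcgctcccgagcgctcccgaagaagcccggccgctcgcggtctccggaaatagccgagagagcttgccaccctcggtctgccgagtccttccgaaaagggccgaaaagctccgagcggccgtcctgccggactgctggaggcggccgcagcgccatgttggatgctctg
Eif4a3l1: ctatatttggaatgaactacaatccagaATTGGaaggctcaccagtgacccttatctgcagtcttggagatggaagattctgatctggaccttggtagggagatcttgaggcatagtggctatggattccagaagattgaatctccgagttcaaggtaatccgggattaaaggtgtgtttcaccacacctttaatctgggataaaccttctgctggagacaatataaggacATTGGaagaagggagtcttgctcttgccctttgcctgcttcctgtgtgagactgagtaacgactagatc
Eif3f: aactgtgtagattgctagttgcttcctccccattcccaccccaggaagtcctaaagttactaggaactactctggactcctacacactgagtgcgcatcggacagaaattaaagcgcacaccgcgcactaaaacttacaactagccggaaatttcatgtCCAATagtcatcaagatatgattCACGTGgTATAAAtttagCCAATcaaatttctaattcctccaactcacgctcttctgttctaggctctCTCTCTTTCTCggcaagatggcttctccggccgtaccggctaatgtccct

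The Eif2ak3 window holds 6 CAAT boxes, 4 of them on the strand of the gene, a number reached by 16 of 17274 windows (0.0926%). The Eif3g window matched none of the motifs. In Eif3f, the start tract CTCTCTTTCTC covers 11 bases and lies downstream of a CAAT box, an E-box and a TATA box. The Eif4a3l1 window is poor in CpG, with 3 of them, against a median of 24 over the 43 members that have a window.

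Nearly all Eif genes had open chromatin at a gene end in both genotypes. Of the 55 genes, 48 (87.3%) were called in all 6 libraries, against 48.8% of all protein-coding genes, and 2 were called in no library, against 30.3% of all genes. Per library, 53, 51 and 49 Eif genes were called in Dek_cKO, against 52, 52 and 49 in Dek_fl. The shares averaged 92.7% ± 3.64 in Dek_cKO and 92.7% ± 3.15 in Dek_fl (SD, n = 3 each), a difference of 0. Over all protein-coding genes they averaged 62.3% ± 8.97 in Dek_cKO and 60.9% ± 8.49 in Dek_fl. No Eif gene was called in 3 libraries of one genotype and 0 of the other. Among all genes, 3 (0.0139%) were called in the 3 Dek_cKO libraries alone, and 0 (0.0%) in the 3 Dek_fl libraries alone. With 3 libraries a group, an exact permutation test of one gene cannot give a p below 0.1.

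**Figure D1:**
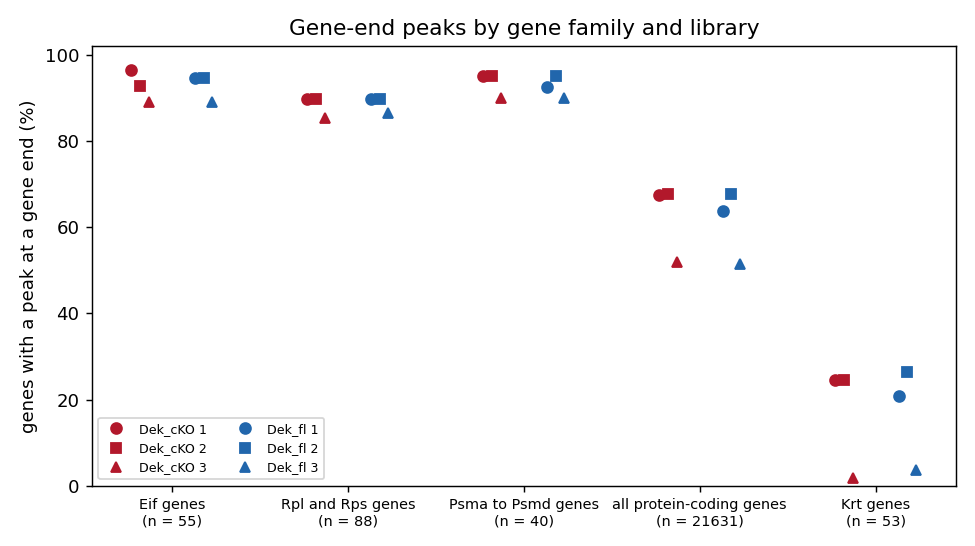
Percent of genes with a peak within 1 kb of a gene end (y axis) for each gene family and library, with Dek_cKO left of Dek_fl and 1 point per library. The Eif genes lie between 89.1% and 96.4% in every library, close to the ribosomal protein and proteasome genes and above all protein-coding genes at 51.4% to 67.7%.

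Gene families with like housekeeping roles were called about as often. The ribosomal protein genes (Rpl and Rps) were called in all 6 libraries for 74 of 88 genes (84.1%), the proteasome subunit genes (Psma to Psmd) for 35 of 40 (87.5%), and the keratin genes, a family used in epithelia, for 1 of 53 (1.89%).

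The strength of the member peaks was also close between the genotypes. The median percentile of -log10 p over the 48 members called in all 6 libraries was 94.7, 95.3 and 83.9 in Dek_cKO. It was 93.8, 94.9 and 80.1 in Dek_fl. Over all genes called in all 6 libraries these medians were 92.6, 92.7 and 76.2 in Dek_cKO and 89.7, 92.6 and 74.9 in Dek_fl. By -log10 p the member median was thus above that of all these genes in each library, and replicate 3 was the lowest of its group in both. For fold enrichment the member medians were 84.0, 85.2 and 79.0 in Dek_cKO and 87.3, 85.2 and 74.5 in Dek_fl. Over all genes called in all 6 libraries they were 83.9, 85.4 and 72.6 in Dek_cKO and 85.8, 82.7 and 71.6 in Dek_fl. By fold the members were thus close to all genes in Dek_cKO replicates 1 and 2. For 35 of the 48 members, both replicate 3 libraries had a lower percentile of -log10 p than all 4 other libraries. The median over all genes was also lowest in replicate 3 of each group, and the same count was not made over all genes. The part that the different processing of replicate 3 has in this was not tested.

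**Figure D2:**
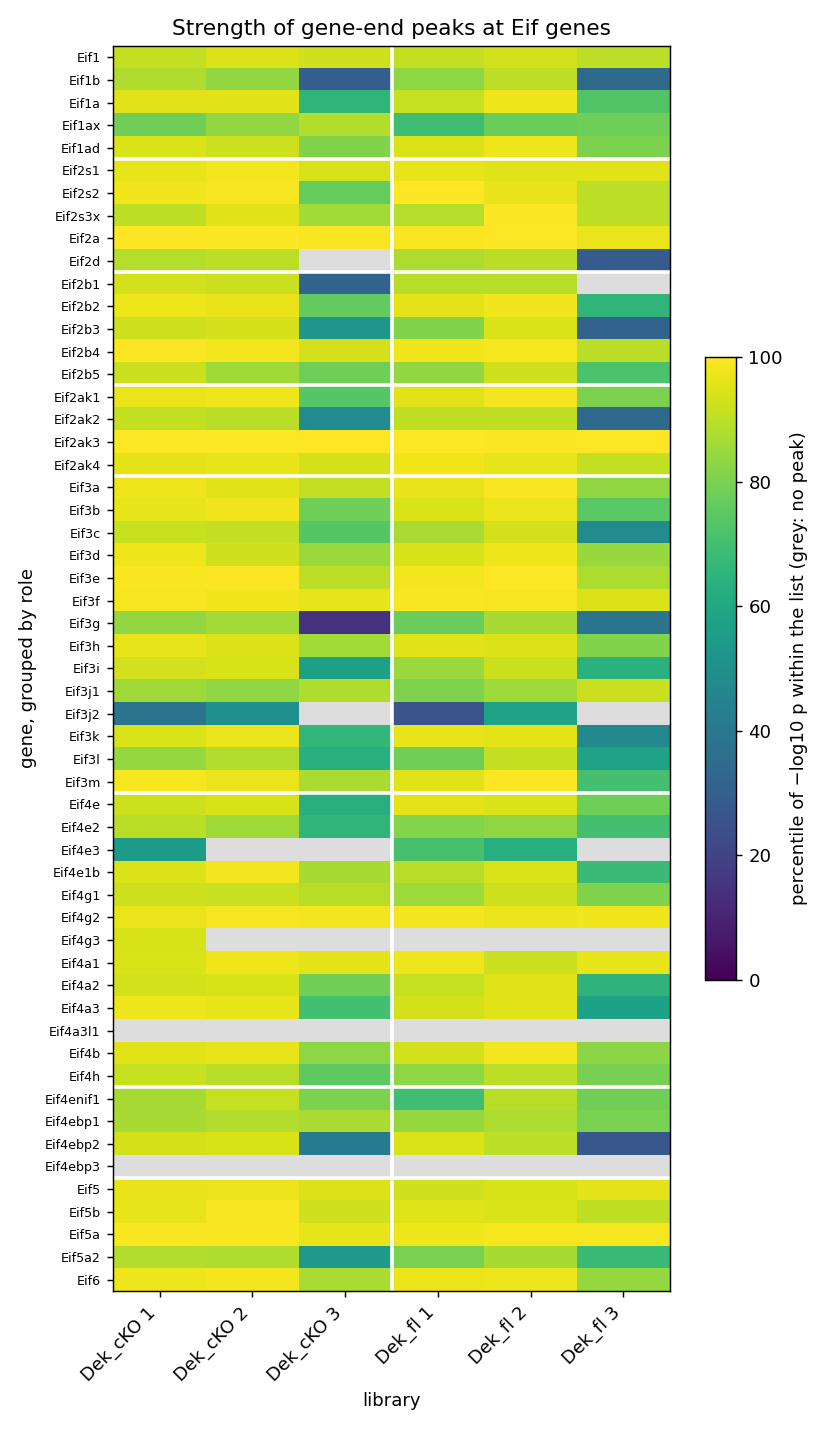
Percentile of -log10 p (colour scale) of the highest gene-end peak of each of the 55 Eif genes (rows, grouped by role) in each library (columns, Dek_cKO left of Dek_fl), with grey where no peak was called. Eif2ak3 is at or above 99.3 in every library, replicate 3 is lower than the other libraries of its group for most genes, and 7 rows hold grey.

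Start-site scanning depends on eIF1 and eIF1A, which keep the small subunit moving until a start codon is matched. All 5 genes of this group were called in all 6 libraries. Eif1, which guards start codon choice (chr11:100319949-100322099), had percentiles of -log10 p of 90.8, 94.9 and 92.6 in Dek_cKO and 90.8, 93.2 and 89.9 in Dek_fl. Its close relative Eif1b (chr9:120492606-120495327) had 88.1, 83.7 and 30.0 in Dek_cKO and 83.0, 89.9 and 34.4 in Dek_fl. The genotypes overlapped for both genes, and for Eif1b replicate 3 was far below the rest in each. Eif1ax, the X-linked eIF1A gene (chrX:159372178-159389621), had 78.4, 83.8 and 88.5 in Dek_cKO and 69.1, 77.5 and 78.1 in Dek_fl, and was the one scanning gene whose genotypes did not overlap, by a gap of 0.308 percentile points. The autosomal Eif1a and Eif1ad, an eIF1A-like gene, ranged from 65.6 to 97.4 over the libraries.

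eIF2 carries the initiator tRNA, and Eif2a and Eif2d encode other proteins that can deliver a tRNA to the ribosome. Eif2s1, the alpha subunit on which the stress kinases act (chr12:78862072-78887010), had percentiles of 96.4, 98.2 and 94.1 in Dek_cKO and 96.7, 95.5 and 95.1 in Dek_fl. Eif2a (chr3:58525821-58557501) was among the strongest, with 99.8, 99.9 and 99.2 in Dek_cKO and 99.0, 99.8 and 96.9 in Dek_fl. Both genes overlapped between genotypes. The beta and gamma subunit genes Eif2s2 and Eif2s3x ranged from 76.4 to 99.7. Eif2d (chr1:131153172-131187659) had 89.0 and 90.0 in Dek_cKO replicates 1 and 2 and no peak in replicate 3, against 87.5, 89.5 and 28.7 in Dek_fl, so it was called in 5 libraries.

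eIF2B reloads eIF2 with GTP, and its 5 subunit genes were all called in every replicate 1 and 2 library. Eif2b5, the catalytic epsilon subunit (chr16:20498795-20509325), had percentiles of 92.0, 85.7 and 77.8 in Dek_cKO and 83.9, 92.7 and 71.8 in Dek_fl. Eif2b1, the alpha subunit (chr5:124570214-124579131), had 93.2, 91.8 and 32.4 in Dek_cKO, against 89.4 and 89.1 in Dek_fl replicates 1 and 2 and no peak in replicate 3. It is the mirror case of Eif2d, with the missing call in the other genotype. Eif2b3, the gamma subunit, was picked after its values were seen, and had percentiles of -log10 p of 92.2, 93.7 and 52.4 in Dek_cKO and 81.2, 94.4 and 32.0 in Dek_fl. This is the highest difference of means for -log10 p among the 48 members (10.2 percentile points), and it lies within its libraries' spread.

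The 4 kinases of eIF2 alpha each answer another stress, and all were called in all 6 libraries. Eif2ak3 encodes PERK, the kinase for unfolded proteins in the endoplasmic reticulum (chr6:70844484-70905241). It had the highest mean percentile of -log10 p of the family, with percentiles of 99.8, 99.6 and 99.96 in Dek_cKO and 99.7, 99.3 and 99.9 in Dek_fl. The fold enrichment of that peak was 8.22, 9.52 and 20.3 in Dek_cKO and 8.29, 7.33 and 16.8 in Dek_fl, on the scale of each list. Its region over all libraries, chr6:70843586-70845415, covers the promoter window with the 6 CAAT boxes. Eif2ak4 encodes GCN2, the kinase for amino acid shortage, and had 95.9, 96.4 and 93.7 in Dek_cKO and 97.9, 96.3 and 90.9 in Dek_fl. Eif2ak2 encodes PKR, the kinase for double-stranded RNA (chr17:78850504-78882572), and was among the 4 lowest members on average, with 90.9, 89.6 and 48.1 in Dek_cKO and 90.2, 90.2 and 34.7 in Dek_fl. Eif2ak1, the heme-regulated kinase HRI, ranged from 73.7 to 98.1.

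eIF3 is the largest initiation factor, and 13 of its 14 genes were called in all 6 libraries. Eif3a, its main scaffold (chr19:60761116-60790693), had percentiles of 97.4, 95.3 and 90.9 in Dek_cKO and 96.9, 99.0 and 83.4 in Dek_fl. Eif3g, an RNA-binding subunit (chr9:20894349-20898590), had the lowest mean percentile of the family at 64.6, with 83.9, 86.3 and 14.6 in Dek_cKO and 77.3, 87.0 and 38.6 in Dek_fl. Its low mean comes with low values in replicate 3 of both genotypes. Eif3j2 (chr18:43475418-43477836) was called in replicates 1 and 2 alone, at 38.4 and 50.2 in Dek_cKO and 26.4 and 57.5 in Dek_fl. It has a similar copy, Eif3j1, called in all 6 libraries, and the sources used here do not say how reads were shared between the copies. The remaining 11 eIF3 genes lay between 47.3 and 99.7.

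The eIF4 group recognises the cap and unwinds the leader, and 10 of its 13 genes were called in all 6 libraries. Eif4e, the cap-binding protein (chr3:138526191-138559696), had percentiles of -log10 p of 92.4, 94.0 and 62.6 in Dek_cKO and 95.7, 94.4 and 77.8 in Dek_fl, and its difference of means, -6.34 percentile points, was the lowest of the 48 members for this measure. Eif4g1, the scaffold of the cap complex (chr16:20672720-20692883), had 92.2, 91.8 and 89.3 in Dek_cKO and 85.3, 92.5 and 80.9 in Dek_fl. Eif4a1, the main helicase, had 94.4, 97.4 and 95.8 in Dek_cKO and 97.5, 92.2 and 96.3 in Dek_fl. Eif4g2, a relative of Eif4g1 that does not bind eIF4E, was among the 4 highest members, with 97.0, 98.5 and 98.1 in Dek_cKO and 98.1, 97.1 and 97.8 in Dek_fl. The genotypes overlapped at each of these genes.

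The other eIF4 genes include those that the call rule missed. Eif4g3 (chr4:137991779-138207086) was called in Dek_cKO replicate 1 alone, because its RefSeq start sites lie 1676 bp inside the annotated gene end. A peak covered the printed promoter window in all 6 libraries, at 93.9, 89.6 and 65.9 in Dek_cKO and 90.4, 92.3 and 54.0 in Dek_fl. Eif4e3, a cap-binding relative (chr6:99621879-99692873), had 54.4 in Dek_cKO replicate 1 and no call in the other Dek_cKO libraries. It had 70.9 and 62.7 in Dek_fl replicates 1 and 2 and no call in replicate 3. In Dek_cKO replicate 2 a peak at percentile 52.2 lay 1086 bp outside a gene end, just past the limit. The nearest peak in Dek_fl replicate 1 lay 796 bp outside the same end. The count of Eif4e3 calls per genotype thus turns on the 1 kb limit. Eif4a3l1, a copy of the exon junction helicase gene Eif4a3 (chr6:136327539-136329983), had no peak nearer than 23307 bp in any library, although reads of similar copies may be left out or shared in alignment. For Eif4e1b, known for its expression in oocytes, the peak lay past an annotated gene end. Its region, chr13:54788642-54790003, also lay within 1 kb of an end of Tspan17.

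The eIF4E-binding proteins hold eIF4E away from the scaffold. Eif4ebp1 (chr8:27260327-27275656) had percentiles of 86.9, 88.6 and 87.3 in Dek_cKO and 84.3, 87.9 and 79.9 in Dek_fl. Eif4ebp2 (chr10:61428491-61452790) was among the 4 lowest members, with 93.7, 93.8 and 40.9 in Dek_cKO and 94.5, 90.0 and 27.1 in Dek_fl. The replicate 3 values come from another site: the summit lay 1080 bp downstream of the start in Dek_cKO and 930 bp downstream in Dek_fl, against -151 to -253 bp in the other libraries, and the promoter window had a peak in 4 of 6 libraries. Eif4ebp3 (chr18:36664060-36666324) was called in no library, and its nearest peak lay 3231 to 3649 bp away in all 6. Eif4enif1, which carries eIF4E into the nucleus, ranged from 69.3 to 91.1.

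Of the joining and late factors, all 5 genes were called in all 6 libraries. Eif5 makes eIF2 hydrolyse its GTP at the start codon, and had percentiles of 96.8, 97.1 and 94.9 in Dek_cKO and 92.6, 93.9 and 95.8 in Dek_fl. Eif5b, which joins the subunits, had 96.2, 98.8 and 92.8 in Dek_cKO and 95.1, 94.3 and 90.6 in Dek_fl. Eif6 keeps the large subunit apart and had 97.3, 98.4 and 87.3 in Dek_cKO and 97.0, 97.5 and 84.2 in Dek_fl. Eif5a, a hypusine-bearing protein that also serves elongation, was among the 4 highest members, with 98.9, 99.2 and 96.2 in Dek_cKO and 97.4, 98.7 and 98.7 in Dek_fl. The genotypes overlapped at all 4.

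Set against each other gene by gene, the genotypes differed little at the Eif genes. The difference of mean percentiles, Dek_cKO minus Dek_fl, had a median of 1.45 points for -log10 p over the 48 members, beside 1.07 over all 10551 genes called in all 6 libraries, and of 1.74 points for fold enrichment, beside 0.30 over all genes. By -log10 p, 36 of 48 members (75.0%) were higher in Dek_cKO, where 67.7% of all genes were, and by fold enrichment 30 of 48 (62.5%), where 53.0% of all genes were. The difference was below the pooled SD of the libraries for 44 of 48 members by -log10 p and for 43 by fold enrichment. No such count was made over all genes, so whether the Eif genes stand out in this is not known. The exceptions among the members, named after their values were seen, were Eif1ax, Eif4ebp1, Eif5 and Eif4g1 for -log10 p, all higher in Dek_cKO. For fold enrichment they were Eif4h, Eif4enif1, Eif4e1b and Eif4g1, higher in Dek_cKO, and Eif3f, lower. By same-numbered libraries, a pairing borne out for replicate 3 alone, 11 members were higher in Dek_cKO in 3 of 3 pairs for -log10 p. For 1 member, Eif4e, it was 0 of 3 pairs, and for fold enrichment the counts were 9 and 4. Such pairs were not counted over all genes, so the counts are not read as a trend of the Eif genes. The lowest and highest differences for fold enrichment were -14.7 at Eif4e and 17.9 at Eif4enif1. Within replicates 1 and 2 the median difference was 0.83 for -log10 p and 0.05 for fold enrichment, below the 1.57 and 0.63 over all genes. Within replicate 3 it was 2.25 and 3.54, above the 0.73 and 0.37 over all genes. With lists cut to equal length, the member median for fold enrichment turned to -2.16, beside -2.99 over all genes. Without Dek_fl replicate 3 the medians for -log10 p and fold enrichment turned to -3.12 and -2.12 (all genes -3.49 and -2.92). Without Dek_cKO replicate 2 they turned to -0.20 and -0.47 (all genes -0.66 and -1.24).

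**Figure D3:**
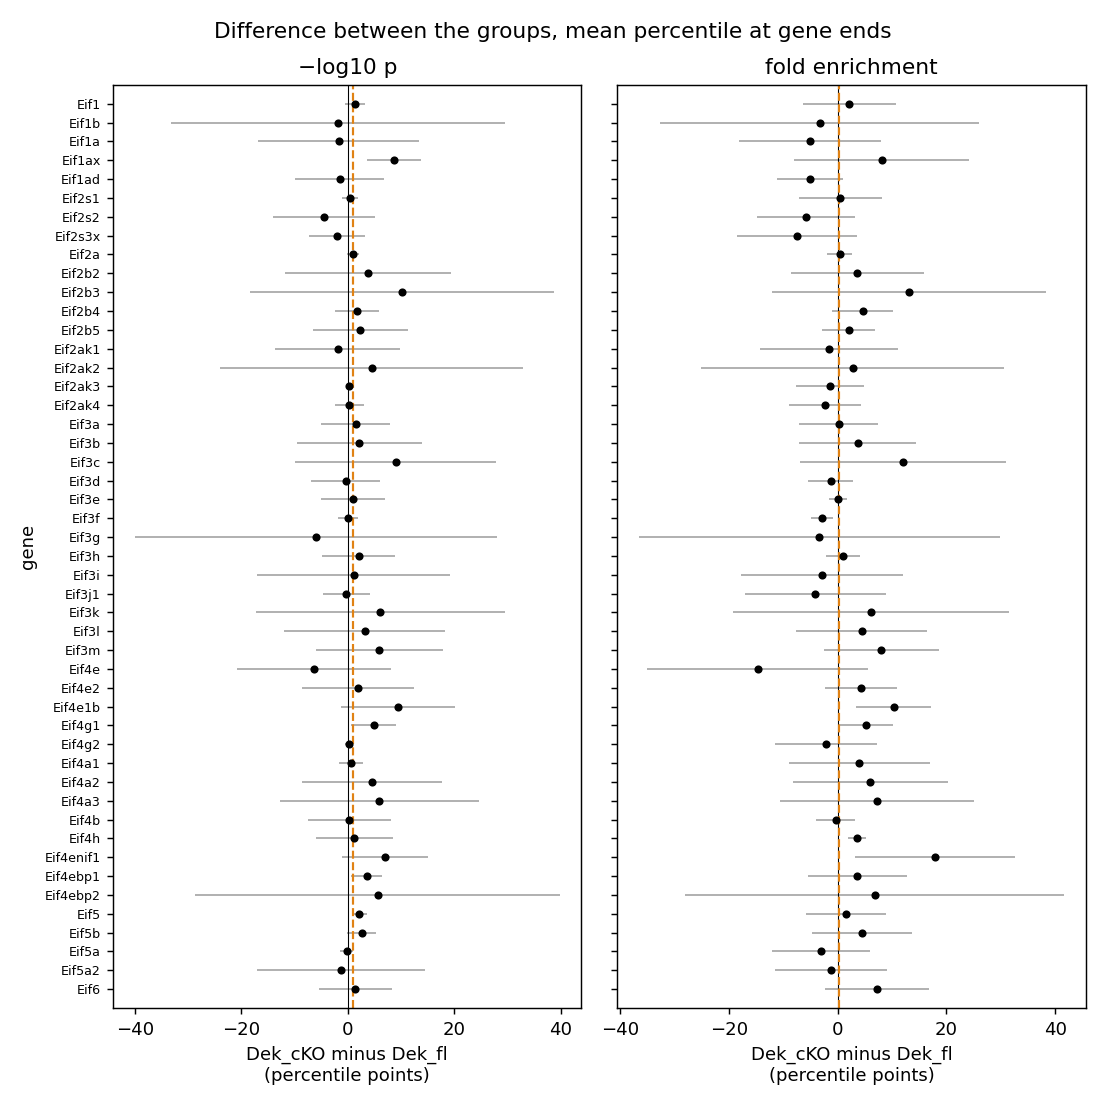
Difference of mean percentile, Dek_cKO minus Dek_fl (percentile points), for each of the 48 Eif genes called in all 6 libraries, for -log10 p and for fold enrichment. Bars show the pooled SD of the libraries (n = 3 each) and the dashed line the median over all genes (1.07 and 0.30), and most bars cross 0.

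Few members had groups that did not overlap. For -log10 p, 1 member of 48 was higher in every Dek_cKO library than in every Dek_fl library, Eif1ax, where 1.46% of all genes were, and 0 were lower, where 0.237% of all genes were. For fold enrichment 2 members were higher throughout, where 1.6% of all genes were, and 0 were lower, where 0.957% were. They were Eif4e1b, with fold percentiles of 89.4, 94.4 and 89.6 in Dek_cKO and 86.1, 86.5 and 70.0 in Dek_fl, and Eif4h, a cofactor of the eIF4A helicase, with 75.5, 74.8 and 76.0 in Dek_cKO and 69.4, 72.7 and 73.5 in Dek_fl. The Eif4e1b region lies past the gene end and is shared with Tspan17, so its values are not those of Eif4e1b alone. The members' counts are too small to be told apart from the shares over all genes.

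A fit across all regions found no changed Eif region. limma was run on the ranks, as normal scores, of the 19683 regions called in all 6 libraries. Of these, 52 lay within 1 kb of an end of an Eif gene. At a Benjamini-Hochberg adjusted p under 0.05, 0 of the 52 regions were higher or lower in Dek_cKO by either measure, and so were 0 of all regions in each direction (0.0%). At an unadjusted p under 0.05, 0 of the 52 passed as well. Over the whole table, 68 regions (0.345%) were higher and 19 (0.0965%) lower by fold rank. By -log10 p rank, 57 (0.29%) were higher and 49 (0.249%) lower. At shares this small, 0 of 52 is near what all regions show and is not a contrast with them. Among the members the smallest unadjusted p by limma for -log10 p was 0.0789, at the Eif4e1b region shared with Tspan17. Its rank score was 0.54 higher in Dek_cKO (SE 0.27, n = 3 each). For fold enrichment the smallest unadjusted p by limma was 0.103 at Eif2s3x, with a rank score of -0.58 (SE 0.32). With the replicate number as a block, 0 of the 52 passed the adjusted threshold, beside 1 of all regions by each measure (0.00508%). At an unadjusted p under 0.05 that fit had 2 of the 52 by each measure, beside 4.44% of all regions for fold rank and 4.01% for -log10 p rank. These values do not show that the genotypes were alike at the Eif genes, only that no difference passed the test with 3 libraries a group.

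The open regions sat at the transcript starts. For 39 members with a region called in all 6 libraries and a RefSeq start, the median summit lay within 250 bp of the start in 34 (87.2%), against 76.0% of 8557 genes in all. It lay upstream of the start in 28 of 39 members (71.8%), against 56.9% of all genes, and the median position was -59.5 bp, against -21.5 bp. The 5 members farther away were Eif5b, Eif2s1, Eif2s3x and Eif1ax, upstream, and Eif1, downstream, named after their positions were seen. In Eif5b, the summits lay at -622, -695 and -833 bp from the start in Dek_cKO and at -696, -547 and -857 bp in Dek_fl. Member regions had a median length of 1666.5 bp over the merged libraries, against 1616 bp for all genes. Peaks were narrower in replicate 3, where the median width over 40 members was 773.5 bp in Dek_cKO and 840 bp in Dek_fl, against 1365.5 to 1599 bp in the other libraries.

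**Figure D4:**
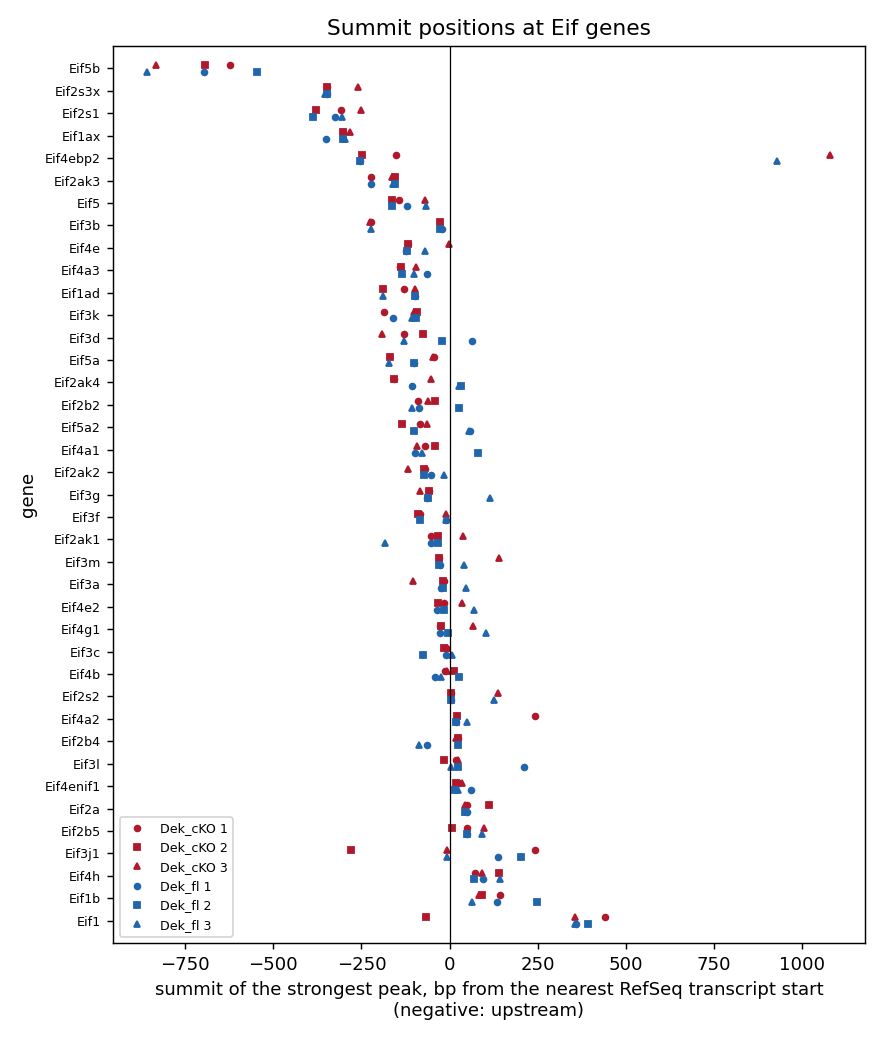
Distance of the peak summit from the nearest RefSeq transcript start (bp, negative upstream) for the Eif genes, 1 point per gene and library, with Dek_cKO above Dek_fl. Most summits lie within 250 bp of the start in both genotypes, with the Eif5b summits beyond 500 bp upstream and the replicate 3 summits of Eif4ebp2 at 1080 and 930 bp downstream.

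Some Eif regions are shared with a neighbouring gene, so their accessibility is not that of the Eif gene alone. In 13 of 48 members (27.1%) the region also lay within 1 kb of an end of another protein-coding gene, against 30.4% of all genes. Examples are Eif2a with Serp1, Eif4a1 with Senp3, Eif2s1 with Atp6v1d and Eif5b with Txndc9. The strongest Eif6 region, chr2:155818453-155819927, also lay within 1 kb of an end of BC029722 and of Mmp24. Both ends of Eif6, Eif4a1 and Eif4g1 had a peak in all 6 libraries.

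By sequence, the 43 member promoters with a RefSeq window were rich in G+C and CpG. The median G+C was 61.3%, against 56.3% over all 17274 windows, and the median number of CpG was 24, against 14. The ETS letters CCGGAAGT were in 7 windows (16.3%, against 5.34% of all), the E-box CACGTG in 8 (18.6%, against 8.01%), CCAAT in 14 (32.6%, against 39.6%) and TATAAA in 3 (6.98%, against 13.4%). NRF1 letters were in 1 window (2.33%, against 1.35%), and YY1 and CRE letters in 0 (against 1.92% and 2.36%). An oligopyrimidine start was found in 2 windows (4.65%, against 2.19%), those of Eif2s3x and Eif3f, of which Eif3f is printed above. Of these 43 members, 97.7%, 97.7% and 93.0% had a peak on the window in Dek_cKO replicates 1, 2 and 3, and the same shares did in Dek_fl. Peaks were not counted over all 17274 windows, so these shares are not read as a trait of the Eif genes.

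The other genes of translation were open to a like extent, beside 48.8% of all protein-coding genes called in all 6 libraries. Of 20 further initiation genes 17 were called in all 6 libraries, with Mcts2 and Larp1 called in none and Pdcd4, an inhibitor of eIF4A, called in 2 Dek_cKO libraries and 1 Dek_fl library. Among 16 elongation genes 15 were called in all 6, with Eef1a2, a form used in nerve and muscle, called in 1 Dek_cKO library and 0 Dek_fl libraries. Of the 8 termination and recycling genes that were matched, 6 were called in all 6, with Gspt2 called in 2 Dek_cKO and 3 Dek_fl libraries and Mtrf1 in 3 Dek_cKO and 2 Dek_fl libraries. Of 12 partners of the eIF2 stress response, among them the transcription factor Atf4, 11 were called in all 6, with Impact called in 2 Dek_cKO and 3 Dek_fl libraries. In the same limma fit, these lists held 18, 19, 6 and 14 regions in the order given. Of these, 0 passed an adjusted p of 0.05 in either direction by either measure, as did 0 of all regions (0.0%). At an unadjusted p of 0.05, 0 passed, beside 0.442% of all regions by fold rank and 0.539% by -log10 p rank. The 0 is thus near the share over all regions.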

How the data were processed

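The 6 lists of ATAC-seq peaks held 1 library each. Per the submitters' processing notes, reads were handled with Bowtie2, Picard and MACS2 on mm10, with versions not given in the sources used here. The authors deposited for each peak a score, a fold enrichment (ratio), a -log10 p and a -log10 q, and replicate 3 of both groups was scored by another rule. Peaks were called per library, per the deposited lists. Libraries were grouped by genotype label. The members and all gene lists were chosen with earlier results of these data known. Genes came from the RefSeq table for mm10 (GRCm38.p6), which has no strand or exons. Percentiles were ranks within a list on chromosomes 1 to 19 and X. Peaks sharing at least 1 bp were merged into 84592 regions. Normal scores of ranks in the 19683 regions called in all 6 libraries were fitted with limma 3.58.1 (R 4.3.3) and adjusted by Benjamini-Hochberg over all of them, with no replicate block. Python 3.11.15 did the rest. The code of the fit was checked on simulated data with planted shifts. Its noise was smaller than in these libraries and held no batch, so that check does not measure power here. A gene was named with values if it was not called in all 6 libraries, was among the 4 highest or 4 lowest in mean percentile of -log10 p, passed the limma threshold, or is the core member of a complex; others are said to be chosen after their values were seen. Deviations of same-numbered libraries from the group means correlated at 0.27, 0.52 and 0.74 for fold rank. For -log10 p rank they correlated at 0.41, 0.51 and 0.71. Dek_cKO replicate 1 with Dek_fl replicate 2 gave 0.57 and 0.50 for the 2 measures. Dek_cKO replicate 2 with Dek_fl replicate 1 gave 0.31 and 0.42. Only replicate 3 was thus set apart as a pair. Libraries were paired by number, which for replicates 1 and 2 is an assumption that neither the labels nor these values bear out. Alternatives were a stricter -log10 q, equal-length lists, a 500 bp window, leaving out each library, each batch alone, a replicate block, a batch term, 201 bp summit intervals and a fit over genes. Promoter windows covered 43 of the 55 members, and the other 12 were not used in the sequence counts.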

Additional observations from a re-analysis of the deposited data

How the results depend on the processing

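The count of Eif genes called in all libraries of one genotype and none of the other was 0 in every setting tried other than replicate 3 alone, where it was 2: Eif2b1 in Dek_cKO and Eif2d in Dek_fl, as against 642 and 516 of all genes. The setting with replicate 3 alone and the promoter-window setting were chosen after seeing the data. Leaving out 1 library at a time put the difference in the share called between -1.82 and 1.82 percentage points. The median difference in -log10 p percentile lay between -3.12 and 5.79, and over all genes between -3.49 and 6.76. That in fold percentile lay between -2.12 and 3.54, and over all genes between -2.92 and 3.99. The sign of these small medians thus rests on single libraries, for the Eif genes as for all genes. With lists of equal length the medians were 0.72 and -2.16 (all genes -0.39 and -2.99). With a -log10 q of at least 10 they were 3.07 and 4.16 (all genes 2.32 and 1.42). By limma, 0 member regions passed the adjusted threshold in every alternative run. The replicate block changed no member call. At an unadjusted p under 0.05 by limma, that fit had Eif2b3 and Eif2s3x for fold rank (all regions 4.44%) and Eif2a and Eif4e1b for -log10 p rank (4.01%). The batch term had Eif2s3x for fold (4.30%) and Eif2a, Eif4e and Eif4e1b for -log10 p (4.96%). Without Dek_cKO replicate 3 there were Eif3i and Eif6 for fold (1.89%), without Dek_fl replicate 2 Eif2a for -log10 p (0.736%), with replicates 1 and 2 alone Eif3i for fold (3.64%), and with 1 row per gene Eif4e1b for -log10 p (0.588%). For the genes named by the rule, 458 values were taken under alternatives. Of these, 442 moved by less than 1 SD of the libraries and 16 by more, 8 of the 16 with replicate 3 alone. The cause was not tested. That SD comes from the same 3 libraries a group, so leaving out 1 library cannot move a difference by 1 SD. The 442 therefore do not show that the values are stable. The lists hold no read depth, so what depth limits could not be measured.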
